A study of Mus musculus with 6 samples.

Results

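The LIM-only factors *Lmo1*, *Lmo2*, *Lmo3* and *Lmo4* and the LIM-binding partners *Ldb1* and *Ldb2* were examined in ribosome-bound RNA from *Kiss1* cells of the medial amygdala (MeA) of female mice. These 6 genes were found by their symbols in the table of log2 CPM (CPM being read counts scaled to the library's total), and all 6 are among its 13886 listed genes, so none of the members was missing. The family was chosen from the comparison of E2 with OVX libraries, in which *Lmo3* has an adjusted p under 0.05, and the differences between treatments of the 6 genes are therefore given as a description. Their intervals and p-values come from the comparison that chose the family and support nothing further.

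All libraries came from Kiss1Cre+/Rpl22HA+/+ females, in which Cre expressed from *Kiss1* puts an HA tag on the ribosomal protein RPL22, so that the ribosomes of these cells can be precipitated. Every female was ovariectomized at 8 weeks of age, given estradiol (E2) for 4 days to drive Cre and left without E2 for 7 days. The OVX group (3 libraries) then received nothing and the E2 group (3 libraries) a new E2 capsule for 5 days, and each library came from the pooled MeA punches of 4 brains. The tag is kept once Cre has acted, so it marks any cell of the punch in which *Kiss1* drove Cre, at that time or before. In pooled material of this kind, fewer cells of a type and less RNA per cell cannot be told apart.

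LIM domains are zinc-binding protein modules that bind other proteins rather than DNA. The LIM-only (LMO) proteins consist of little more than a pair of such domains, and they join DNA-binding partners, such as basic helix-loop-helix and GATA factors, into larger complexes. The LIM domain-binding (LDB) proteins form dimers and hold LMO proteins or LIM-homeodomain transcription factors together, and LMO proteins can compete with LIM-homeodomain factors for them. In the forebrain these genes take part in the specification of neurons, and *Lmo3* and *Lmo4* are also expressed in adult amygdala and cortex.

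The scaled library size ran from 28.1 to 34.2 M reads, and correlations between libraries across genes, which are not independent replicates, were between 0.977 and 0.989. The *Kiss1* gene model ENSMUSG00000115958 had a mean log2 CPM of 2.70, with 1.75 in OVX and 3.66 in E2 libraries (limma adjusted p = 0.00475). A second *Kiss1* model, ENSMUSG00000116158, had -2.12 in OVX and 2.93 in E2 libraries (limma adjusted p = 0.0942). The 6 markers of MeA *Kiss1* neurons, in 7 rows, summed to 604 to 696 CPM in OVX and 704 to 831 CPM in E2 libraries. Of these rows, 2 had an adjusted p under 0.05, the first *Kiss1* model (higher with E2) and *Esr1* (lower with E2). Markers of other cell types were detected in the precipitates as well, among them *Mbp* of myelin (9.68), *Gfap* of astrocytes (7.81) and *Flt1* of endothelium (5.54), on a scale that is not divided by length. These 3 lie at or near the top of their marker lists, whose medians were 8.14 for oligodendrocytes, 6.23 for astrocytes and 3.6 for endothelial cells. Between E2 and OVX, 40 of the 13886 genes passed the threshold of an adjusted p under 0.05 (0.288%), 32 of them higher (0.23%) and 8 lower (0.0576%) with E2.

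The mean log2 CPM over the 6 libraries, which depends on a gene's length as well as its level, was 7.50 for *Lmo3* (rank 1170 of 13886), 6.89 for *Ldb1* (rank 1940), 6.84 for *Lmo4* (rank 2019), 5.90 for *Ldb2* (rank 4029), 5.12 for *Lmo2* (rank 6021) and 2.48 for *Lmo1* (rank 11328). Read counts rebuilt from the log2 CPM ran from 4797 to 6722 per library for *Lmo3* and from 122 to 228 for *Lmo1*. The counting error was thus largest for *Lmo1*. At the read length of 75 bases, 0 of the stretches in transcripts of *Lmo1*, *Lmo2*, *Lmo3*, *Lmo4* or *Ldb2* were found in a transcript of another gene, so the 4 LMO paralogues share no such read. *Ldb1* shares 177 exonic bases with *Pprc1* on the opposite strand, which is 2.19% of its stretches, and since the libraries are unstranded these reads could come from either gene.

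Levels of different genes can only be compared per length, so CPM was divided by the kilobases in the union of each gene's exons. On this scale of CPM per kilobase, *Lmo3* had 35.6 ± 4.8 (SD, n = 6), *Lmo4* 32.6 ± 3.0, *Ldb1* 25.8 ± 0.94, *Ldb2* 18.0 ± 1.6, *Lmo2* 16.1 ± 2.2 and *Lmo1* 3.64 ± 0.61. The levels fell into a high pair of LMO genes, *Ldb1* in between, *Ldb2* and *Lmo2* below, and *Lmo1* far below the rest. Among the 13881 genes with an exon length, 90.0% had a lower level per kilobase than *Lmo3*, 89.0% than *Lmo4*, 85.9% than *Ldb1* and 37.8% than *Lmo1*.

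**Figure D1:**
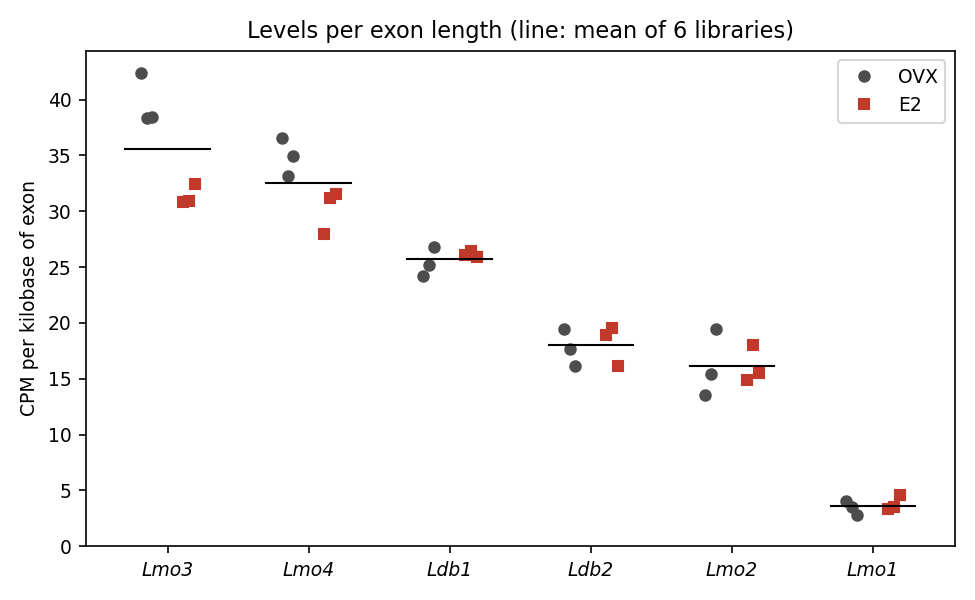
Level of each gene in CPM per kilobase of exon (vertical axis, from 0), with OVX libraries as grey circles, E2 libraries as red squares and the mean of the 6 libraries as a line. *Lmo3* and *Lmo4* lie highest, with means of 35.6 and 32.6, and *Lmo1* lies lowest with 3.64.

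The 15 pairs of members were compared by the difference within each library, with a two-sided exact permutation test over the signs of the 6 differences, whose smallest possible p is 0.0312, adjusted over the 15 pairs. Of these pairs, 13 differed (adjusted p = 0.0361 each, with the same order in 6 of 6 libraries). *Lmo1* was below each of the other members, by 2.16 (SD 0.39) on the log2 scale per kilobase against *Lmo2* and by 3.30 (SD 0.32) against *Lmo3*. *Ldb1* was above *Ldb2* by 0.52 (SD 0.16), and *Lmo4* was above *Ldb1* by 0.33 (SD 0.17). The neighbours *Lmo3* and *Lmo4* did not pass the test: *Lmo3* was higher by 0.12 (SD 0.09), in a range from -0.01 to 0.21, in 5 of 6 libraries (exact permutation adjusted p = 0.067). The exception was E2 replicate 2, and the 6 libraries pool both treatments, between which the *Lmo3* level differed. Nor did *Ldb2* and *Lmo2* pass, with a difference from -0.27 to 0.52 (exact permutation adjusted p = 0.219). The order of the highest pair depends on the length used, since per kilobase of the longest transcript *Lmo4* was above *Lmo3* by 0.47 in 6 of 6 libraries (exact permutation adjusted p = 0.0335).

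*Lmo3* (ENSMUSG00000030226, chromosome 6 from 138362918 to 138581968 on the minus strand, GRCm38) encodes the LIM-only protein closest to LMO1 and is known mainly from the nervous system and neuroblastoma. Its log2 CPM was 7.77, 7.62 and 7.63 in OVX replicates 1, 2 and 3, and 7.31, 7.31 and 7.38 in E2 replicates 1, 2 and 3. Every E2 library was below every OVX library and the 3 E2 libraries lay closer together than the OVX libraries, of which replicate 1 was highest. The group means were 7.67 ± 0.08 and 7.33 ± 0.04 (SD, n = 3), a difference of -0.34 (SE 0.06, 95% interval -0.47 to -0.21), which is 20.8% less in linear CPM with E2. This difference had an adjusted p of 0.0311, the value that chose the family, and among the members the next one outside the threshold was *Lmo4* with 0.351. It did not stay under 0.05 without OVX replicate 1 (0.18), OVX replicate 3 (0.058), E2 replicate 1 (0.145) or E2 replicate 2 (0.117). Nor did it with a replicate block (0.131) or without the mean-variance trend (0.497). It stayed under 0.05 without OVX replicate 2 (0.0373) or E2 replicate 3 (0.0342), and with voom weights on rebuilt counts (0.03). Among all genes, 3.90% had a difference at least as far below 0 as *Lmo3*.

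The sequence around the start of *Lmo3* is shown because it is the member whose level differed most between treatments, and that of *Lmo4*, whose libraries also did not overlap, is set beside it. Of the 6 genes, *Lmo1*, *Lmo3*, *Lmo4* and *Ldb1* matched by symbol in the RefSeq windows (GRCm38.p6), each from 250 bases before to 50 bases after an annotated start. *Lmo2* and *Ldb2* did not match. Both sequences are on the minus strand and read 5′ to 3′, chr6:138581919-138582218 for *Lmo3* and chr3:144205206-144205505 for the *Lmo4* start farthest upstream. Capitals mark E-boxes (CANNTG, which basic helix-loop-helix factors bind), the arm GGTCA of the estrogen response element, and the letters AGATAA of a GATA site, each searched on both strands.
Lmo3: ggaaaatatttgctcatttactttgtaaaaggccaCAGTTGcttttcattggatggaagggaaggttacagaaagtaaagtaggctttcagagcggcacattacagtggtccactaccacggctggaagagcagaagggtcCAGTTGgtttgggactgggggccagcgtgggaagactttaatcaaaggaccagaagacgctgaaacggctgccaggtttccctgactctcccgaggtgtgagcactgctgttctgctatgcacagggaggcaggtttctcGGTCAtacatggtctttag
Lmo4: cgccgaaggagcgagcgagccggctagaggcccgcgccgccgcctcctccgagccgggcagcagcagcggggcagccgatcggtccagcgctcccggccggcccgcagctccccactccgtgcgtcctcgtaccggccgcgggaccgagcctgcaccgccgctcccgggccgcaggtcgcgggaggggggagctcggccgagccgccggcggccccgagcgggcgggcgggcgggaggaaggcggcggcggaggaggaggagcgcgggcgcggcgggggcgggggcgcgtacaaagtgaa

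The *Lmo3* window holds 2 E-boxes, from -215 to -210 and from -109 to -104 relative to the start, and 1 arm GGTCA, from 31 to 35, with no overlap between these motifs. Among 32851 windows of the same length, 72.3% hold an E-box and 40.5% hold the arm, so these matches are common. The whole estrogen response element, GGTCA and TGACC set 3 bases apart, was found in 0 of the 9 windows of the matched members and in 0.07% of all windows. The *Lmo4* window shown holds 0 of the marked motifs, while its other 2 windows, which overlap each other, share 1 arm and 1 E-box. The windows also differ in base composition, with 7 CpG dinucleotides and 50% G and C for *Lmo3* against 52 and 81.3% for *Lmo4*, and GC boxes (GGGCGG) were found 0 times in the *Lmo3* and 4 times in this *Lmo4* window. A GATA site was found in 11.2% of all windows and, among the members, only in the *Ldb1* window farthest downstream, which holds 2. AP-1 letters (TGANTCA, in 7.81% of windows) were found in 1 *Lmo1* window. These are matches of letters and do not show that a factor binds.

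*Lmo4* (ENSMUSG00000028266, chromosome 3 from 144188530 to 144205220) encodes a broadly expressed LIM-only protein that binds the transcription factor DEAF1 and the repair protein CtIP, and in neurons inhibits the phosphatase PTP1B. Its log2 CPM was 7.01, 6.87 and 6.95 in OVX replicates 1, 2 and 3, and 6.62, 6.78 and 6.80 in E2 replicates 1, 2 and 3. The groups did not overlap, although OVX replicate 2 and E2 replicate 3 lay close to each other. The means were 6.94 ± 0.07 and 6.74 ± 0.10 (SD, n = 3), a difference of -0.21 (SE 0.07, 95% interval -0.35 to -0.06), or 13.5% less in linear CPM with E2. Of the 6 members, 2 had every E2 library below every OVX library, as had 6.82% of all genes, and 1 had an adjusted p under 0.05, a share that was fixed by how the family was chosen.

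**Figure D2:**
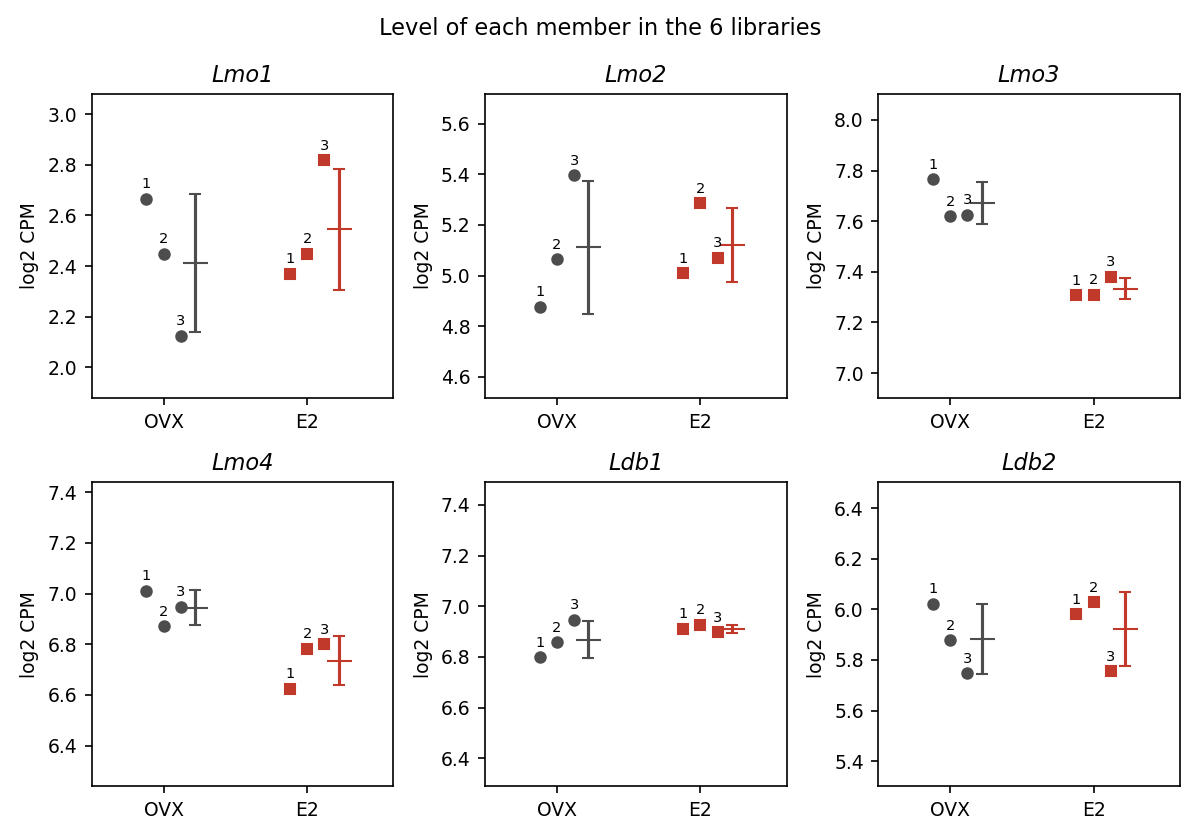
Level of each member as log2 CPM (vertical axis, 1.2 log2 units in every panel) in OVX libraries (grey circles) and E2 libraries (red squares), numbered by replicate, with the mean and SD of each group beside them. The groups are separate for *Lmo3* and *Lmo4* and overlap for the other 4 genes.

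*Lmo2* (ENSMUSG00000032698, chromosome 2 from 103957986 to 103981878) encodes the LIM-only protein that joins TAL1, GATA factors and LDB1 in blood-forming and endothelial cells. Its log2 CPM was 4.88, 5.06 and 5.40 in OVX replicates 1, 2 and 3, and 5.01, 5.29 and 5.07 in E2 replicates 1, 2 and 3. The groups overlapped fully, with the lowest and the highest library both in OVX, and the difference was 0.01 (SE 0.12, 95% interval -0.26 to 0.27). The 9 endothelial markers, all of them listed and none called, summed to between 103 and 209 CPM in OVX and between 123 and 167 CPM in E2 libraries. By library, this endothelial sum was 125.1, 208.6 and 102.7 CPM in OVX and 167.4, 122.9 and 156.8 CPM in E2 replicates 1, 2 and 3. In the same order *Lmo2* was 29.4, 33.4 and 42.1 CPM in OVX and 32.2, 39 and 33.6 CPM in E2 libraries. Erythroid markers were higher with E2: of 5 genes, 4 were listed, their sum ran from 121 to 228 CPM in OVX and from 280 to 447 CPM in E2 libraries, and 2, *Hba-a1* and *Hba-a2*, had an adjusted p under 0.05. The median difference of the erythroid markers was 1.06. The part of endothelial or blood cells in the *Lmo2* level was not tested.

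*Lmo1* (ENSMUSG00000036111, chromosome 7 from 109138572 to 109175207) encodes a LIM-only protein of the nervous system that is known from T-cell leukaemia. Its log2 CPM was 2.67, 2.45 and 2.13 in OVX replicates 1, 2 and 3, and 2.37, 2.45 and 2.82 in the E2 replicates. The groups overlapped, and the difference of 0.13 (SE 0.22) had a 95% interval from -0.34 to 0.60, the widest of the 6 members.

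Of the LIM-binding partners, *Ldb1* (ENSMUSG00000025223, chromosome 19 from 46031570 to 46045214) encodes the widely expressed member that bridges LIM proteins in many tissues. Its log2 CPM was 6.80, 6.86 and 6.95 in OVX and 6.91, 6.93 and 6.90 in E2 replicates 1, 2 and 3, so that the E2 values lay inside the OVX range. The difference was 0.04 (SE 0.06, 95% interval -0.09 to 0.17). *Ldb2* (ENSMUSG00000039706, chromosome 5 from 44472132 to 44799680) encodes its paralogue. It had 6.02, 5.88 and 5.75 in OVX and 5.98, 6.03 and 5.75 in E2 replicates 1, 2 and 3, with overlap over nearly the whole range and a difference of 0.04 (SE 0.09, 95% interval -0.16 to 0.23). In both groups replicate 3 had the lowest *Ldb2*.

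Since LMO and LDB proteins work as complexes, the summed levels were set against each other, a measure chosen after the values were seen. The 4 LMO genes together had 2.19 ± 0.06 (SD, n = 3) times the CPM per kilobase of the 2 LDB genes in OVX and 1.84 ± 0.15 times in E2 libraries. By library the ratio was 2.21, 2.11 and 2.23 in OVX and 1.71, 1.82 and 2.0 in E2 replicates 1, 2 and 3, without overlap. *Lmo3* made up 42.2% ± 1.9 of the LMO sum in OVX and 38.6% ± 1.6 in E2 libraries, *Lmo4* 37.0% ± 0.71 and 37.0% ± 0.65, *Lmo2* 17.2% ± 3.1 and 19.8% ± 1.6, and *Lmo1* 3.69% ± 0.67 and 4.65% ± 0.66. *Ldb1* made up 58.9% ± 3.5 of the LDB sum in OVX and 59.0% ± 2.2 in E2 libraries. The ratio is of transcripts on ribosomes and not of proteins, and it contains the *Lmo3* values that chose the family. *Lmo3* and *Lmo4*, whose groups did not overlap, made up most of the LMO sum, so the ratio is not a separate result. Per kilobase of the longest transcript the ratio was 2.57 ± 0.08 in OVX and 2.16 ± 0.17 in E2 libraries.

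The 5 genes whose profile over the 6 libraries was most like that of *Lmo3*, among 8777 others with a mean log2 CPM of at least 4, were *Sv2b*, *Otub2*, *Syn2*, *Mmp17* and *Tmem132a*. Likeness was the root mean square difference between log2 CPM values centred on each gene's mean, and it was 0.02 for *Sv2b*, 0.03 for *Otub2*, 0.04 for *Syn2*, 0.04 for *Mmp17* and 0.05 for *Tmem132a*, against a median of 0.20. *Sv2b* and *Syn2* encode proteins of synaptic vesicles, *Otub2* a deubiquitinating enzyme, *Mmp17* a membrane-bound metalloproteinase and *Tmem132a* a transmembrane protein. *Sv2b* followed *Lmo3* most closely, with 9.06, 8.94 and 8.93 in OVX and 8.60, 8.67 and 8.71 in E2 replicates 1, 2 and 3. Among the members, *Lmo4* was nearest to *Lmo3* (0.08, rank 65), while *Ldb1* (0.21, rank 5335), *Ldb2* (0.22, rank 5931) and *Lmo2* (0.27, rank 7830) were farther than the median gene. Each profile contains the difference between treatments, and for *Lmo3* that difference chose the family. Genes lower with E2 therefore rank near it, and the ranks support nothing further.

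**Figure D3:**
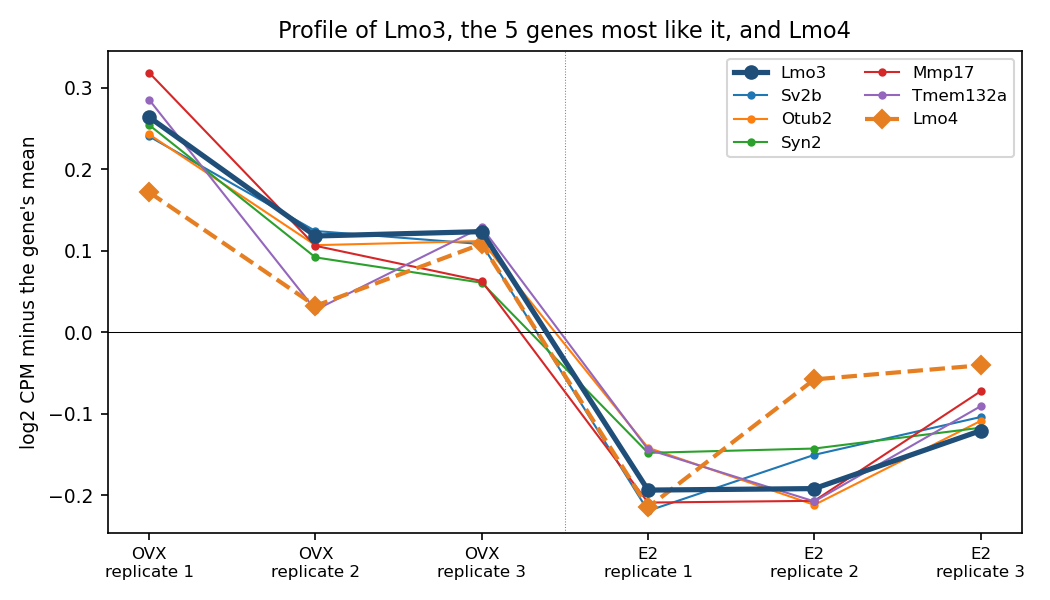
Log2 CPM minus the gene's own mean over the 6 libraries (vertical axis) for *Lmo3* (thick blue line), the 5 genes most like it (thin lines) and *Lmo4* (dashed orange), by library. OVX replicate 1 is highest for all 7 genes, and the 3 E2 libraries lie below 0 for each. For *Lmo3* and the genes most like it, the latter follows from the difference that chose the family.

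Given here are 6 markers listed for excitatory forebrain neurons outside the MeA. They are shown because their sum was lower in E2 than in OVX libraries, as were *Lmo3* and *Lmo4*. The list leaves out *Slc17a6* (VGLUT2), which the paper reports as higher with E2, though not significantly. Of the 6 markers, 0 had an adjusted p under 0.05 in limma and 5 had an unadjusted p under 0.05, as had 8.56% of all genes. All 6 had a lower mean with E2, with a median difference of -0.48 beside 0.00 over all genes, and the groups overlapped for 5 of them. The difference was -0.42 (SE 0.11, adjusted p = 0.174) for *Slc17a7* and -0.05 (SE 0.07, adjusted p = 0.915) for *Tbr1*. Their summed level was 880 to 1140 CPM in OVX and 668 to 871 CPM in E2 libraries, led by *Slc17a7*, the vesicular glutamate transporter VGLUT1. The paper names VGLUT1 among the transcripts of MeA *Kiss1* cells, and whether these markers came from such cells or from others in the punch was not tested. OVX replicate 3 and E2 replicate 3 had nearly the same marker sum (880.3 and 871.1 CPM), a pair picked after the values were seen. In this pair of libraries *Lmo3* was 197.5 and 166.8 CPM and *Lmo4* 123.5 and 111.4 CPM. The order within any pair of an OVX and an E2 library was fixed, since the groups did not overlap for either gene. With the mean of the 6 markers as a covariate in the fit, 67.2% of the *Lmo3* difference and 45.9% of the *Lmo4* difference were left, with a standard error 1.39 and 1.42 times as large. The same share was 458% for *Lmo1*, -2610% for *Lmo2*, -78.9% for *Ldb1* and 147% for *Ldb2*, whose groups overlapped. With the covariate, the *Lmo3* difference was -0.23 (SE 0.08). Its adjusted p in this limma fit was 0.997, a value that every member had, so it is not particular to *Lmo3*. The 3 markers of GABA neurons had higher means with E2, with a median difference of 0.15 and 0 called. The groups overlapped for *Gad1* and *Slc32a1* but not for *Gad2* (difference 0.31, limma adjusted p = 0.251). The excitatory marker sum was lower in every E2 library than in every OVX library. With 6 libraries, the parts of these markers and of the treatment in the *Lmo3* and *Lmo4* differences therefore cannot be told apart.

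**Figure D4:**
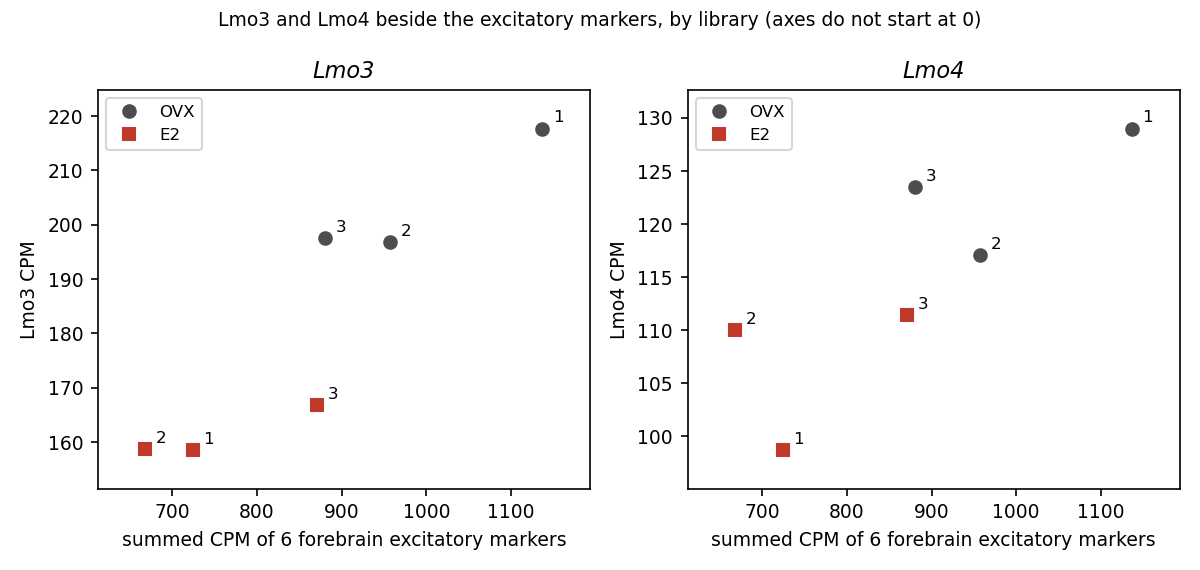
CPM of *Lmo3* (left) and *Lmo4* (right) against the summed CPM of 6 markers of forebrain excitatory neurons, 1 point per library, with OVX as grey circles and E2 as red squares, numbered by replicate. The lowest OVX sum (880.3, replicate 3) lies just above the highest E2 sum (871.1, replicate 3), and the groups do not overlap on either axis.

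Other genes that work with LMO and LDB proteins were counted in lists. Of 12 LIM-homeodomain factors, the DNA-binding proteins that also use LDB, 4 were listed (*Lhx2*, *Lhx5*, *Lhx6* and *Lhx9*) and 0 passed the test, with 0 at an unadjusted p under 0.05 (8.56% of all genes). The mean log2 CPM was 5.70 for *Lhx2*, a patterning factor of the telencephalon, 5.20 for *Lhx9*, 4.62 for *Lhx6* and 0.94 for *Lhx5*. Their differences were -0.10 (SE 0.09) for *Lhx2*, 0.15 (SE 0.12) for *Lhx9*, -0.13 (SE 0.13) for *Lhx6* and -0.26 (SE 0.38) for *Lhx5*, and the groups overlapped for each of the 4. The 8 others, among them *Isl1* and *Lhx8*, were not listed, and their level below the authors' minimum is not known.

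Of 23 partners of LMO and LDB proteins, 19 were listed and 0 passed the test, while 2 had an unadjusted p under 0.05 (*Runx1* and *Cbfa2t3*), beside 8.56% of all genes. The groups did not overlap for 4 of the 19, as for 13.7% of all genes, and the median difference was 0.01 beside 0.00 over all genes. The highest log2 CPM, not divided by length, belonged to *Ssbp4* (mean log2 CPM 7.56) and *Ssbp3* (7.08), single-stranded DNA-binding proteins that bind LDB proteins and keep them from degradation, and to the helix-loop-helix factor *Tcf4* (7.02). *Ssbp3* had a difference of -0.13 (SE 0.06, adjusted p = 0.591), *Ssbp4* of 0.04 (SE 0.07, adjusted p = 0.931) and *Tcf4* of -0.17 (SE 0.08, adjusted p = 0.609). *Rlim*, a ubiquitin ligase that marks LDB proteins for degradation, had a difference of -0.07 (SE 0.07, adjusted p = 0.845). The extreme differences in each direction were 0.79 (SE 0.32, adjusted p = 0.502) for *Runx1* and -0.59 (SE 0.34, adjusted p = 0.697) for *Lyl1*. *Tal1* (mean log2 CPM 2.61) and *Gata2* (2.01), partners of LMO2 in blood and endothelium, had differences of -0.15 (SE 0.21) and 0.17 (SE 0.30), and *Gata1*, *Gata3*, *Tal2* and *Nhlh1* were not listed. *Deaf1* and *Ptpn1*, which encodes PTP1B, had differences of 0.01 (SE 0.09) and 0.00 (SE 0.09).

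Of 50 genes of other LIM-domain proteins, 45 were listed and 1 passed the test (0.288% of all genes did), *Lmcd1*, which rose with E2. *Lmcd1* (ENSMUSG00000057604) encodes a LIM and cysteine-rich protein that restrains GATA6. Its log2 CPM was 2.63, 2.79 and 2.95 in OVX replicates 1, 2 and 3, and 3.73, 3.95 and 3.62 in the E2 replicates, without overlap. Its difference was 0.97 (SE 0.16, adjusted p = 0.0189), which is 1.96-fold (95% interval 1.55 to 2.48), and its adjusted p rose above the threshold to 0.0778 when OVX replicate 1 was left out, 0.0732 for E2 replicate 1 and 0.145 for E2 replicate 2. The highest log2 CPM on this list, not divided by length, belonged to *Mical2* (mean log2 CPM 7.94), an enzyme that oxidizes actin, to *Prickle2* (7.80), a planar polarity protein, and to *Lmo7* (7.77). *Mical2* had a difference of 0.17 (SE 0.06, adjusted p = 0.429) and *Prickle2* of -0.11 (SE 0.06, adjusted p = 0.671). *Lmo7*, a larger protein that is no LIM-only factor despite its name, had 8.05, 8.13 and 7.68 in OVX and 7.51, 7.49 and 7.77 in E2 replicates 1, 2 and 3. Its groups overlapped through replicate 3 of each, its difference was -0.37 (SE 0.10, adjusted p = 0.263), and without OVX replicate 3 its adjusted p was 0.0265. Without any of the other libraries its adjusted p was 0.0913 to 0.689, and with the excitatory marker covariate its difference was -0.08, with 21.4% left. The lowest difference on this list, -0.38 (SE 0.43, adjusted p = 0.88), was that of *Fhl4*, at a mean log2 CPM of 0.22. Of the 45 genes, 7 had an unadjusted p under 0.05 in limma, beside 8.56% of all genes. The groups did not overlap for 4 of the 45 genes, beside 13.7% of all genes, and the median of the 45 differences was 0.04.

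**Figure D5:**
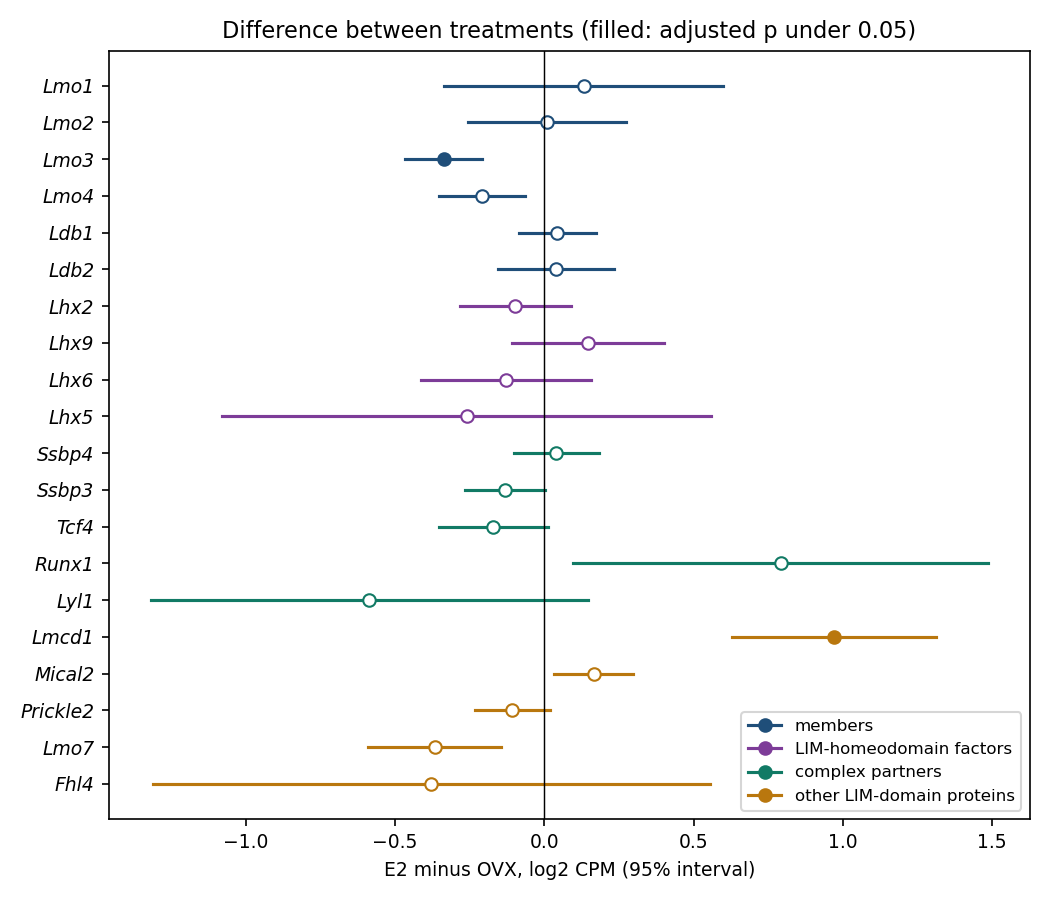
E2 minus OVX difference in log2 CPM (horizontal axis) with its 95% interval for the 6 members (blue) and the named genes of the 3 lists, with filled points for an adjusted p under 0.05. *Lmo3* (-0.34), whose call chose the family, and *Lmcd1* (0.97) are filled.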

How the data were processed

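RNA-seq was performed on RiboTag precipitates of MeA punches from 3 OVX and 3 E2 pools, grouped by the titles of the samples. The values are the log2 CPM deposited by the authors, who trimmed reads with Trimmomatic 0.38, aligned them with STAR 2.6.0a (versions from the submitters' processing notes), counted with RSEM on GRCm38, kept protein-coding genes above a CPM minimum, and applied TMM and voom. The authors' table of log2 fold changes, test statistics and p-values was not used.

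The log2 CPM of all 13886 genes were compared between E2 and OVX with limma (version 3.58.1, R version 4.3.3) and a mean-variance trend, two-sided, with Benjamini-Hochberg adjustment over all genes and a threshold of 0.05. The study used voom weights, which need counts, and counts rebuilt from the lowest value of each library, taken as 0 plus the offset of 0.5, served as an alternative. The fit was tested on simulated data. Replicates are pools of different mice, so p-values measure the spread between pools, and an exact permutation of 3 against 3 cannot go below 0.1. Lengths and positions came from GENCODE mouse release 21 (GRCm38), another release than the authors' annotation.

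Members and gene lists were chosen with earlier results of these data known. Named are all members, from each list the genes past the threshold (up to 6), the 3 of highest level and the extreme difference in each direction, and the 5 genes most like *Lmo3*. *Rlim*, *Cbfa2t3*, *Tal1*, *Gata2*, *Deaf1*, *Ptpn1*, *Isl1* and *Lhx8* were named after their values were seen. Alternatives were no trend, voom weights, median centring, quantile normalization, log2(CPM + 1), a CPM over 1 in all 6 libraries, a replicate block, a covariate of excitatory markers and each library left out. Markers of microglia (5 of 5 genes listed, summed to 79.5 to 103 CPM in OVX and 77.4 to 98.7 in E2), astrocytes (509 to 681 and 598 to 790) and oligodendrocytes (1430 to 2020 and 1580 to 2220) had 0 genes past the threshold.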

Additional observations from a re-analysis of the deposited data

How the results depend on the processing

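The 40 genes past the threshold became 0 without the mean-variance trend (1017 at an unadjusted p under 0.05), 3 with the covariate of excitatory markers (549), and 20 to 66 with each library left out in turn (21 without OVX replicate 1, 26 without E2 replicate 1, 20 without E2 replicate 2 and 66 without E2 replicate 3). The 1 member past the threshold, *Lmo3*, became 0 without the trend (adjusted p = 0.497) and with the replicate block (0.131). It also became 0 with the covariate (0.997, as for every member). The count stayed at 1 with voom weights on rebuilt counts (0.03, with 46 genes in all), median centring (0.0317) and quantile normalization (0.0317). It was also 1 with log2(CPM + 1) (0.0234) and with a CPM over 1 in all 6 libraries (0.0212). Over the fits with 1 library left out the count was 0 to 1, with 0 without OVX replicate 1 (0.18), OVX replicate 3 (0.058), E2 replicate 1 (0.145) or E2 replicate 2 (0.117). The *Lmo3* difference ran from -0.36 to -0.29 with a library left out and that of *Lmo4* from -0.24 to -0.15, signs that are fixed because their groups do not overlap, and with the covariate they were -0.23 and -0.10. The 1 other LIM-domain gene past the threshold, *Lmcd1*, became 0 without the trend and with the covariate and 0 to 2 with a library left out, the 2 being *Lmcd1* and *Lmo7* without OVX replicate 3. With the covariate, differences turned to -0.10 for *Lhx9*, 0.072 for *Lhx5* and 0.032 for *Tcf4*, and among the members to -0.23 for *Lmo2* and -0.03 for *Ldb1*, while *Lmo1* went from 0.13 to 0.61. With a library left out *Lmo1* reached -0.01, *Lmo2* -0.11 and *Ldb2* -0.03, median centring gave -0.00024 for *Lmo2*, and the difference of *Ssbp4* with a library left out ran from -0.0037 (without E2 replicate 3) to 0.10. None of these genes was past the threshold with all libraries. The 13 level differences became 0 with any library left out, because 5 libraries cannot give an exact permutation p below 0.0625, while the order of all 15 pairs was kept. The counts of 0 among LIM-homeodomain factors and complex partners stayed at 0 under all alternatives. The cause of these changes was not tested, other than the fewer libraries in the last fits. The replicate numbers were not taken as pairs, since the correlations of deviations were -0.02, -0.12 and -0.08, and the replicate block gave 35 genes in all. *Lmo1* rests on 122 to 228 rebuilt reads per library.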
